A study of Arabidopsis thaliana with 6 samples.

Results

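Transcript levels of 59 cell cycle and DNA replication genes were followed in shoots of Arabidopsis thaliana. The set was chosen by locus identifier from the deposited count table and holds the A, B and D cyclins, CDKA;1 and the B-type cyclin-dependent kinases, the KRP and SIM-type inhibitors, KNOLLE, HINKEL, the Aurora kinases, CDC20, PCNA, ribonucleotide reductase, MCM2 to MCM7 and RBR1. All 59 were among the 21693 genes of the table, and 58 passed the filter on low counts and were tested, among 10803 genes tested in all. CYCD7;1, a D cyclin, was not tested. The study compared 3 shoot samples of the phod1 mutant with 3 of the wild type (WT), all from seedlings aged 8 days on 1/2 MS agar with 1.0% sucrose and 1.1% agar, kept at 23 °C in cycles of 16 h light and 8 h dark. The title of the study is about phosphate allocation, while the labels name no accession of the plants and do not say which gene the phod1 mutation affects, so a targeted gene could not be used to check the libraries.

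In plants, D-type cyclins respond to hormones and sugar and, with the kinase CDKA;1, inactivate the retinoblastoma protein RBR1, which releases E2F transcription factors to switch on genes of DNA synthesis. A-type cyclins act during DNA synthesis and after it, and B-type cyclins act with the B-type kinases, which only plants have, to drive mitosis. Inhibitors of the KRP and SIM families hold these kinases back, and in leaves the end of division is often followed by rounds of DNA synthesis without mitosis. Many mitotic genes carry the mitosis-specific activator (MSA) element, bound by MYB3R transcription factors, in their promoters.

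The promoter sequences below are examples with a match, from B cyclins and KNOLLE on one side and MCM helicase genes on the other. Levels of these groups are described next, and some of their genes had no match. Capitals mark the core of the MSA element (AACGG, or its reverse complement) in the first 3 and an E2F-type element in the other 5. The E2F-type search used the letters TTTCCCGC, TTTCGCGC, TTTGCCGC and TTTGGCGC. Both searches covered both strands of the 250 bases before each annotated gene start in RefSeq's TAIR10.1 genome. The first 3 are stretches of 150 bases. All sequences are TAIR10.1, on the strand of the gene, 5′ to 3′, and positions are those of that build. CYCB1;2 lies at chr5:1861704-1861853 (minus strand), CYCB2;2 at chr4:16901446-16901595 (plus strand) and KN, which encodes KNOLLE, at chr1:2711001-2711150 (minus strand). The windows of the helicase genes are at chr1:16970188-16970213 (plus strand) for MCM2 and, on the minus strand, at chr5:18773857-18773888 for MCM3, chr2:7130745-7130776 for MCM4, chr2:3527501-3527531 for MCM5 and chr5:18010694-18010725 for MCM6.
CYCB1;2 promoter: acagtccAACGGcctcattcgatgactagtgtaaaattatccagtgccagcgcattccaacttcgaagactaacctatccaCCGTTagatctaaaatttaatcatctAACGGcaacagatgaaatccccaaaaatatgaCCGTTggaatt
CYCB2;2 promoter: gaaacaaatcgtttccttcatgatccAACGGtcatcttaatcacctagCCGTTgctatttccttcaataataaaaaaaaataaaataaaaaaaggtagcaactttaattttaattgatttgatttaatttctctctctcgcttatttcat
KN promoter: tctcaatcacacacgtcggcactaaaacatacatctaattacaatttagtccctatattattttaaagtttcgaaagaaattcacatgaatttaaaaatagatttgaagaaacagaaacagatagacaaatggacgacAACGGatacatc
MCM2 window: ttggcgccaataTTTCCCGCctaatc
MCM3 window: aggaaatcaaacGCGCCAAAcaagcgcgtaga
MCM4 window: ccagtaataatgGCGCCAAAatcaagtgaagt
MCM5 window: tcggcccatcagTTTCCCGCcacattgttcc
MCM6 window: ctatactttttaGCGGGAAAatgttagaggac

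The MSA core was found in 21 of 59 members and in 20.6% of 27443 promoters of the genome. In 6 of the 9 B cyclins and 2 of the 9 inhibitor genes, KRP1 and KRP7, it was found at least 3 times, as in 0.736% of all promoters. KN had 1 match, and the B cyclins CYCB1;4, CYCB2;4 and CYCB3;1 had none. The E2F-type element was found in 7 of 59 members and in 1.41% of all promoters, and those members were RBR1, CYCD3;3 and 5 of the 6 MCM genes. Among the members past the threshold described next, the MSA core was found in 4 of the 9 that fell and 1 of the 5 that rose, and the E2F-type element in 1 that fell, MCM3, and in none that rose. These are matches of letters and were not tested for binding.

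Across the 58 tested genes, the D cyclins CYCD3;1 and CYCD3;2, the cytokinesis genes KNOLLE and HINKEL and the kinase gene CDKB2;1 fell in phod1. So did the cyclins CYCB1;4, CYCB2;2 and CYCA2;3 and the helicase gene MCM3. The ribonucleotide reductase genes TSO2 and RNR1, the replication clamp gene PCNA1 and the inhibitor genes KRP6 and KRP7 rose. In edgeR (quasi-likelihood test, with p-values adjusted by the Benjamini-Hochberg method over the 10803 genes and a threshold of 0.05), 14 of 58 members passed (24.1%), against 27.7% of all genes tested. In phod1, 5 members were higher (8.62%, against 14.6% of all genes) and 9 were lower (15.5%, against 13.0%). With library totals in place of the scaling used here (TMM, which equalises libraries by the bulk of their genes), 9 members were higher and 3 lower, and of all genes 3544 were higher and 618 lower. The share that passed was thus near that of all genes and is no result about these genes as a set. The median log2 fold change of the members was -0.23, and that of all genes tested was 0.014. Fitted values were positive for 20 members and negative for 38. All 3 phod1 values lay below all 3 WT values in 19 members (32.8%, against 22.9% of all genes), and above them in 7 (12.1%, against 24.7%).

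**Figure D1:**
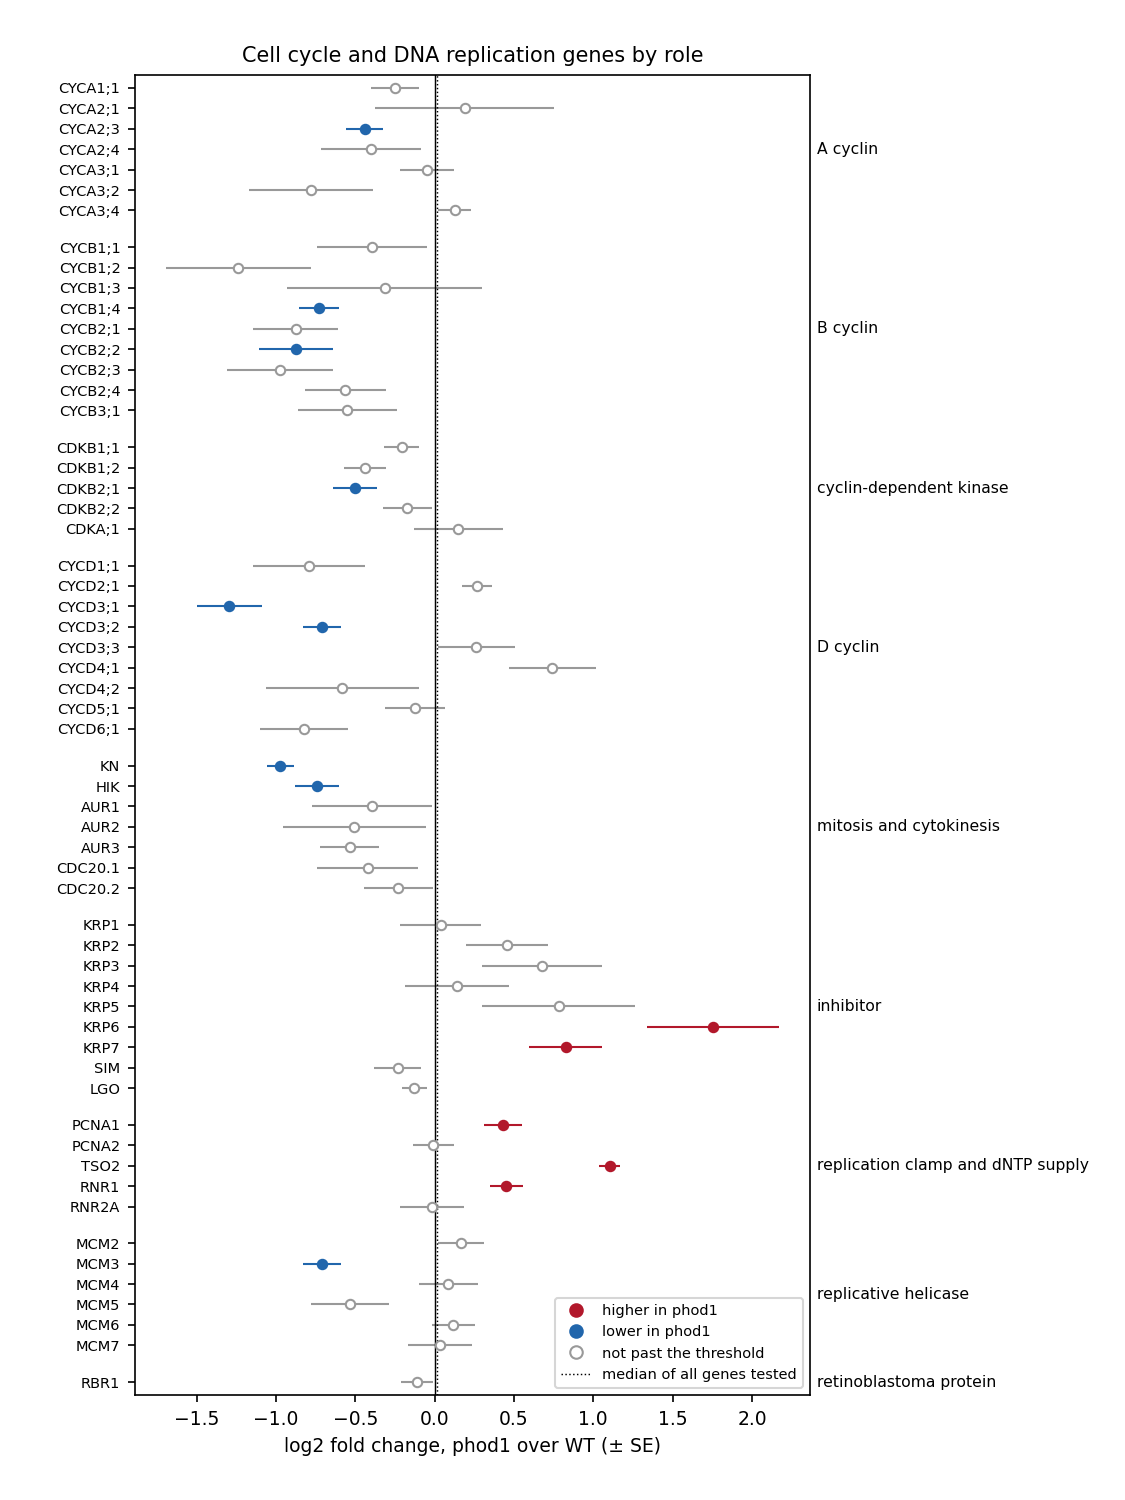
Log2 fold changes (phod1 over WT, ± SE, n = 3 each, horizontal axis) of the 58 tested members, by role. Red points rose and blue points fell, open points did not pass, and the dotted line is the median of all genes tested, 0.014. All 9 B cyclins and all 7 genes of mitosis and cytokinesis lie left of 0 with TMM scaling, while with library totals alone CYCB1;3 (0.049) and CDC20.2 (0.145) lie to the right.

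Deposited counts summed to between 33183463 and 33932995 units in the phod1 libraries and between 34226295 and 54720319 units in the WT libraries. Low values piled up at 4, 8 and 12 (seen 1703, 1074 and 720 times), although others were common too, such as 3 (562) and 5 (832). From this, 1 fragment was taken as about 4 units, which the sources used here do not state. Levels are given as CPM (counts scaled to library size) after TMM scaling, and 3 fragments correspond to 0.256 to 0.404 CPM. That floor rests on the 4 units taken per fragment and covers counting error only. The TMM factors were 1.10 to 1.17 in phod1 and 0.857 to 0.907 in WT. With library totals in place of TMM, the median log2 fold change of all genes was higher by 0.38, and the members' median lay 0.25 below that of all genes (0.24 below with TMM). Directions below are therefore relative to the bulk of the genes. Log2 levels correlated at 0.954 to 0.959 between libraries of the same genotype and at 0.907 to 0.912 between phod1 and WT libraries. The labels do not state whether replicates were grown or harvested separately, so the spread behind each p may be technical.

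**Figure D2:**
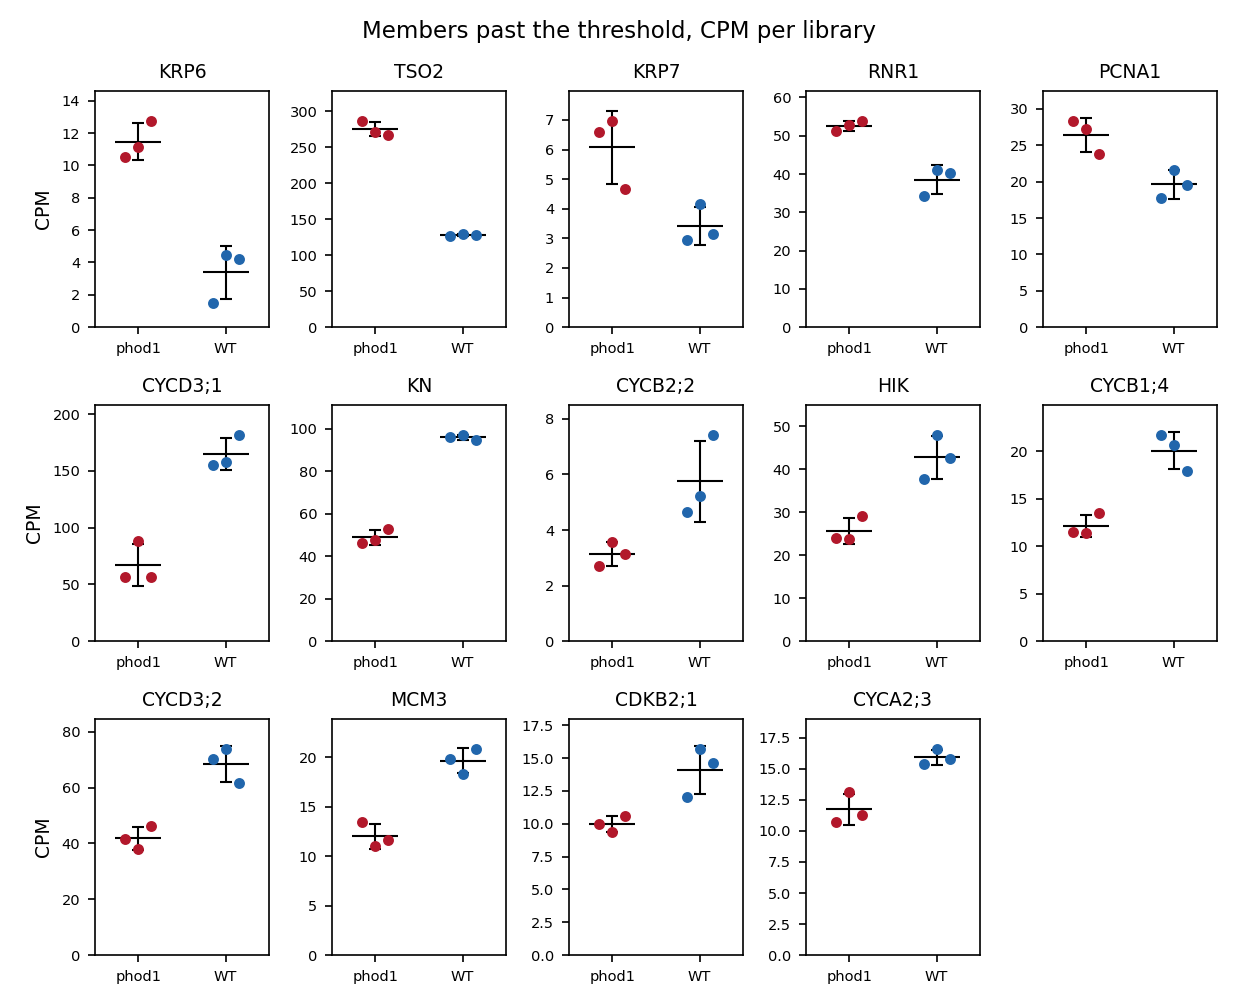
CPM in each library (vertical axes, each from 0) for the 14 members that passed, with phod1 left of WT. Bars are the mean ± SD of 3 libraries. The top row holds the 5 genes that rose and the other rows the 9 that fell, and in every panel the phod1 and WT points do not overlap.

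The D cyclins couple division to growth signals. Of 9 tested members, 2 fell (22.2%, against 13.0% of all genes), none rose and 7 did not pass. CYCD3;1 (AT4G34160, chromosome 4), which holds leaf cells in the dividing state, had 56.9, 88.4 and 56.4 CPM in phod1 and 155, 158 and 181 CPM in WT. Every phod1 library lay well below every WT library, and phod1 2 was the highest of its genotype. The log2 fold change was -1.29 (SE 0.205, adjusted p = 0.0073), the most negative of all members. In bulk shoots, fewer cells that express a gene and less RNA per cell cannot be told apart, here and for each gene below. CYCD3;2 (AT5G67260, chromosome 5), a relative with an overlapping role, had 41.6, 38.0 and 46.2 CPM in phod1 and 70.2, 73.7 and 61.5 CPM in WT. All phod1 libraries lay below all WT libraries, and the log2 fold change was -0.71 (SE 0.119, adjusted p = 0.0089). CYCD3;3, the remaining CYCD3 gene, had 21.7, 26.5 and 14.4 CPM in phod1 and 17.4, 19.6 and 15.1 CPM in WT, and the groups overlapped (log2 fold change 0.26, SE 0.243, adjusted p = 0.486).

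Per kilobase of transcript, CYCD3;1 stood at 35.9 CPM in phod1 and 88.0 CPM in WT, and CYCD3;2 at 28.2 CPM in phod1 and 46.1 CPM in WT. CYCD3;1 thus had the highest WT level per kilobase of all D cyclins, and in phod1 the levels of both CYCD3 genes were closer. Summed over the 10 D cyclins, phod1 libraries had 175, 220 and 186 CPM and WT libraries had 327, 333 and 326 CPM, of which CYCD3;1 was the largest part. Coding sequences of CYCD3;1 and CYCD3;2 matched at 65.1% of aligned bases, and those of CYCD3;2 and CYCD3;3 at 78.1%.

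Of the other D cyclins, CYCD4;1 and CYCD2;1 had all phod1 values above all WT values and did not pass. CYCD4;1, which acts in the stomatal lineage and in root branching, had 4.94, 6.0 and 6.28 CPM in phod1 and 2.22, 4.18 and 3.87 CPM in WT (log2 fold change 0.74, SE 0.273, adjusted p = 0.100). CYCD2;1 had 23.0, 23.1 and 20.8 CPM in phod1 and 18.2, 19.4 and 18.1 CPM in WT (log2 fold change 0.27, SE 0.0942, adjusted p = 0.0888). Both passed, as higher, with library totals in place of TMM (adjusted p = 0.0240 for CYCD4;1 and 0.0060 for CYCD2;1, of alternatives from 0.0240 to 0.226 and from 0.0060 to 0.218). CYCD6;1, a target of SHORT-ROOT in root formative divisions, had 5.30, 4.09 and 4.54 CPM in phod1 and 8.65, 5.40 and 10.6 CPM in WT. The groups did not overlap, and its log2 fold change of -0.82 (SE 0.277, adjusted p = 0.0795) did not pass, except without WT 2 (adjusted p = 0.0238) and with DESeq2 (adjusted p = 0.0337), of alternatives up to 0.272. CYCD1;1, CYCD4;2 and CYCD5;1 had overlapping groups and log2 fold changes of -0.79, -0.58 and -0.12. In CYCD4;2 the WT 1 library, at 4.61 CPM, stood 2.4-fold from its nearest WT sister. CYCD7;1, known from stomatal guard mother cells, had 0, 0.567 and 0.107 CPM in phod1 and 0.942, 0.107 and 0.322 CPM in WT, values around the floor.

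Of the cyclin-dependent kinase genes, 1 of 5 fell (20%, against 13.0% of all genes) and 4 did not pass. CDKB2;1 (AT1G76540, chromosome 1), a kinase gene of G2 and mitosis, had 9.98, 9.37 and 10.6 CPM in phod1 and 12.1, 15.7 and 14.6 CPM in WT. Even the highest phod1 library lay below the lowest WT library, and the log2 fold change was -0.50 (SE 0.137, adjusted p = 0.0434). The call was lost without any 1 library except WT 1 (adjusted p = 0.0801 without phod1 3 up to 0.122 without phod1 2, with 0.111 without phod1 1, 0.110 without WT 2 and 0.105 without WT 3). Its near copy CDKB2;2, with 86.6% identical coding bases, had 5.38, 6.28 and 6.44 CPM in phod1 and 6.43, 7.75 and 6.22 CPM in WT, and the groups overlapped (log2 fold change -0.17, adjusted p = 0.470). The sources used here do not say how reads were shared between such copies. CDKB1;2 had 6.53, 6.64 and 6.47 CPM in phod1 and 7.71, 9.30 and 9.57 CPM in WT (log2 fold change -0.44, SE 0.133, adjusted p = 0.0603). It passed without WT 1 (adjusted p = 0.0448) and with DESeq2 (adjusted p = 0.0179), of alternatives up to 0.783. CDKB1;1 also had all phod1 values below all WT values (log2 fold change -0.21, adjusted p = 0.228), and CDKA;1, the kinase that acts throughout the cycle, had overlapping groups (log2 fold change 0.15, adjusted p = 0.749).

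Among the kinase inhibitor genes, 2 of 9 rose (22.2%, against 14.6% of all genes), none fell and 7 did not pass. KRP6 (AT3G19150, chromosome 3), an inhibitor degraded to let the male germ line divide, had 10.5, 11.2 and 12.7 CPM in phod1 and 1.48, 4.44 and 4.22 CPM in WT. All phod1 values were over 2-fold above all WT values, and WT 1 stood 2.85-fold below its nearest sister. The log2 fold change was 1.76 (SE 0.417, adjusted p = 0.0278), and it was the most positive of all members. The call was kept without WT 1 (adjusted p = 0.0064) or WT 2 (0.0477) and lost without WT 3 (0.0570), phod1 1 (0.0656), phod1 2 (0.0689) or phod1 3 (0.0776). KRP7 (AT1G49620, chromosome 1), a relative with 72.2% of aligned coding bases identical to KRP6, had 6.58, 6.95 and 4.68 CPM in phod1 and 2.93, 4.16 and 3.16 CPM in WT. Every phod1 value lay above every WT value, and the log2 fold change was 0.83 (SE 0.230, adjusted p = 0.0456). The call of KRP7 was kept without phod1 3 alone (adjusted p = 0.0404) and lost without phod1 1 (0.128), phod1 2 (0.132), WT 1 (0.124), WT 2 (0.0507) or WT 3 (0.124).

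The other KRP genes had positive log2 fold changes that did not pass, 0.04 for KRP1, 0.46 for KRP2, 0.68 for KRP3, 0.14 for KRP4 and 0.78 for KRP5, with groups that overlapped in each. KRP4 stood at 23.6, 22.6 and 23.3 CPM in phod1 and at 32.4, 17.1 and 13.6 CPM in WT, so that WT 1 lay above every phod1 library and the other WT libraries below. Without WT 1 it passed as higher (adjusted p = 0.0456, of alternatives up to 0.983), and without WT 3 its sign turned (log2 fold change -0.09). Of the SIM family, LGO, which promotes the switch to DNA synthesis without mitosis in sepal and leaf epidermis, had 95.7, 94.9 and 90.6 CPM in phod1 and 109, 98.7 and 99.6 CPM in WT (log2 fold change -0.13, SE 0.0777, adjusted p = 0.289). SIM, which does so in trichomes, had overlapping groups (log2 fold change -0.23, adjusted p = 0.311). With library totals both had positive values (0.254 for LGO and 0.142 for SIM) that did not pass. LGO had the highest level of all inhibitors, 114 CPM per kilobase in phod1 and 124 CPM per kilobase in WT. The annotation places opposite-strand genes, absent from the counts, across 375 of the 826 bases of LGO and 338 of the 792 of SIM. Where the reads of those neighbours were counted was not tested. The summed level of the 9 inhibitors was 181 to 188 CPM in phod1 and 164 to 184 CPM in WT. With library totals all 9 had positive log2 fold changes, 2 of which passed. The sums there were 199.9 to 219.6 CPM in phod1 and 148.5 to 157.1 CPM in WT.

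RBR1 (AT3G12280), the retinoblastoma protein gene, had 46.6, 48.8 and 41.5 CPM in phod1 and 46.4, 51.3 and 50.3 CPM in WT. The groups overlapped, and the log2 fold change of -0.11 (SE 0.101) did not pass (adjusted p = 0.468). Its sign was positive with library totals (0.269).

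Genes that supply DNA precursors and the sliding clamp rose in 3 of 5 cases (60%, against 14.6% of all genes), and none fell. TSO2 (AT3G27060, chromosome 3), the small subunit gene of ribonucleotide reductase that makes deoxyribonucleotides, had 286, 272 and 268 CPM in phod1 and 126, 130 and 128 CPM in WT. The libraries of each genotype lay close together and the groups were far apart. The log2 fold change was 1.10 (SE 0.0658, adjusted p = 0.00033), with a mean of 275 ± 9.63 CPM in phod1 and 128 ± 1.71 CPM in WT (SD, n = 3 each). Per kilobase, TSO2 had the highest level of all members in phod1, at 163 CPM, against 75.8 CPM in WT. RNR1 (AT2G21790, chromosome 2), the large subunit gene of the same enzyme, had 51.2, 52.9 and 53.8 CPM in phod1 and 34.1, 41.0 and 40.4 CPM in WT. Again phod1 lay above WT in every library, and the log2 fold change was 0.45 (SE 0.104, adjusted p = 0.0247). RNR2A, a second gene for the small subunit with 67.9% of aligned coding bases identical to TSO2, had 18.9, 11.4 and 16.0 CPM in phod1 and 14.4, 16.6 and 15.8 CPM in WT. The phod1 values of RNR2A lay on both sides of the WT values (log2 fold change -0.02, SE 0.199, adjusted p = 0.964).

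PCNA1 (AT1G07370, chromosome 1), which encodes the ring that tethers DNA polymerase, had 28.3, 27.3 and 23.8 CPM in phod1 and 17.7, 21.6 and 19.5 CPM in WT. The lowest phod1 library lay above the highest WT library, and the log2 fold change was 0.43 (SE 0.122, adjusted p = 0.0479). PCNA2, with 85.6% identical coding bases, had 26.0, 27.1 and 28.1 CPM in phod1 and 23.0, 28.0 and 30.6 CPM in WT, with no separation of the groups (log2 fold change -0.01, SE 0.131, adjusted p = 0.975). The call of RNR1 was lost without phod1 1 (adjusted p = 0.0633), phod1 2 (0.0693) or phod1 3 (0.0729). That of PCNA1 was lost without any 1 library (adjusted p = 0.141, 0.131 and 0.0577 without phod1 1, 2 and 3, and 0.125, 0.0582 and 0.115 without WT 1, 2 and 3) and with the size factors of DESeq2 (0.0540), of alternatives from 0.0063 to 0.141. The summed level of the 5 genes was 390 to 411 CPM in phod1 and 216 to 237 CPM in WT, most of it TSO2.

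The genes of the MCM helicase, a ring of 6 different subunits that opens the DNA double strand at origins, did not move together. MCM3 (AT5G46280, chromosome 5) had 13.5, 10.997 and 11.7 CPM in phod1 and 19.9, 18.3 and 20.8 CPM in WT. Every phod1 library lay below the WT libraries, and it fell by 0.71 on the log2 scale (SE 0.119, adjusted p = 0.0091). MCM5 also had all phod1 values below all WT values, at 7.94, 5.10 and 9.33 CPM in phod1 and 9.69, 10.9 and 11.8 CPM in WT, and did not pass (log2 fold change -0.53, SE 0.243, adjusted p = 0.167). MCM2, MCM4, MCM6 and MCM7 had overlapping groups and log2 fold changes of 0.16, 0.09, 0.12 and 0.03. With library totals MCM2 passed as higher (log2 fold change 0.54, adjusted p = 0.0281, of alternatives up to 0.798). The windows printed above show that the E2F-type element stood before MCM3, which fell, and before MCM2, MCM4, MCM5 and MCM6, which did not pass.

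**Figure D3:**
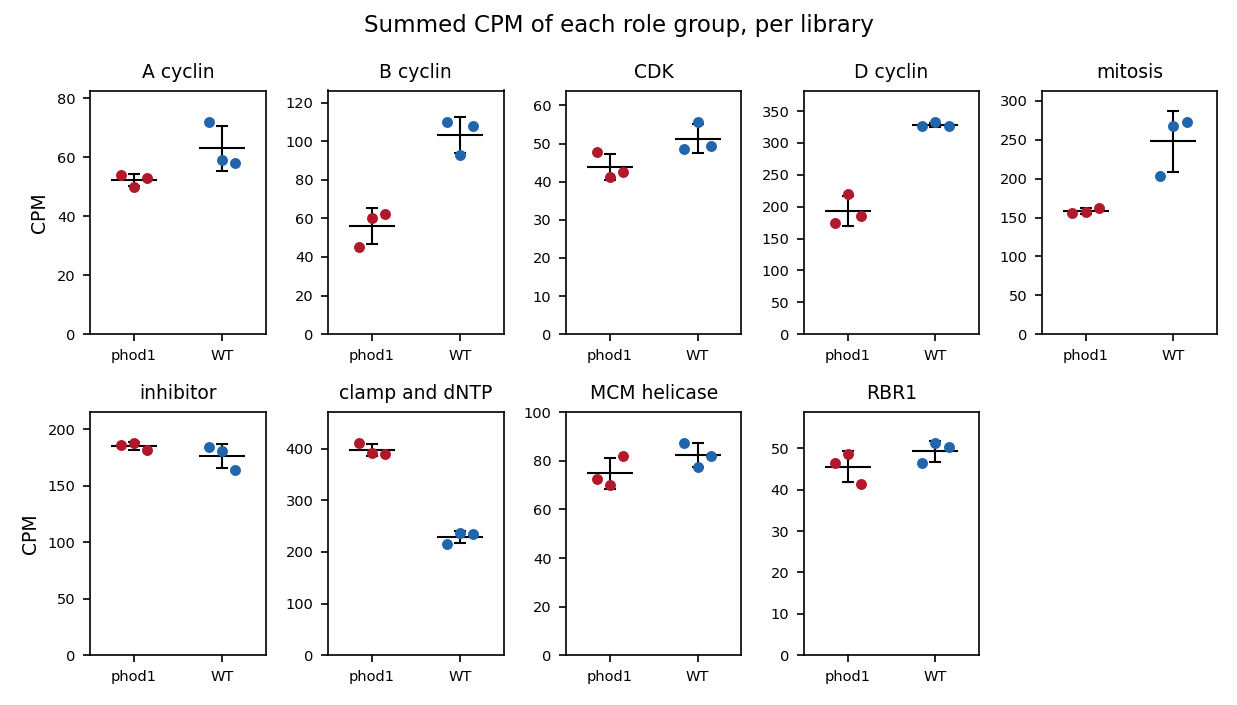
Summed CPM of each role group in each library (vertical axes, each from 0), phod1 left of WT, with the mean ± SD of 3 libraries. The sums of B cyclins and D cyclins lie lower in phod1 and that of the clamp and dNTP genes higher, also with library totals in place of TMM. The sums of A cyclins, kinases, MCM helicase genes and RBR1, which average lower in phod1 here, average higher in phod1 with library totals. The mitosis sums, lower in every phod1 library here, overlap with library totals. Those of the inhibitors overlap here and lie higher in every phod1 library with library totals.

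Of the 7 A cyclins, 1 fell (14.3%, against 13.0% of all genes) and the other 6 did not pass. CYCA2;3 (AT1G15570, chromosome 1), which restrains DNA synthesis without mitosis, had 10.7, 13.2 and 11.3 CPM in phod1 and 15.4, 16.6 and 15.8 CPM in WT. No phod1 value reached a WT value, and the log2 fold change was -0.44 (SE 0.117, adjusted p = 0.0398). The call was kept without phod1 2 (adjusted p = 0.0391) and lost without phod1 1 (0.118), phod1 3 (0.109), WT 1 (0.0851), WT 2 (0.112) or WT 3 (0.0909). CYCA1;1, a cyclin of DNA synthesis and mitosis, had 12.02, 10.5 and 10.5 CPM in phod1 and 15.01, 11.1 and 13.1 CPM in WT (log2 fold change -0.25, SE 0.150, adjusted p = 0.283), and CYCA2;4 had a log2 fold change of -0.40. CYCA3;2 had 5.67, 3.89 and 7.08 CPM in phod1 and 14.7, 6.81 and 7.09 CPM in WT, where WT 1 stood 2.08-fold above its nearest sister (log2 fold change -0.78, SE 0.390, adjusted p = 0.201). CYCA3;1 (log2 fold change -0.05) and CYCA3;4 (0.13) did not pass either, although CYCA3;4 passed as higher with library totals (adjusted p = 0.0148, of alternatives up to 0.663). CYCA2;1 stood at 0.522, 0.335 and 0.775 CPM in phod1 and 0.505, 0.235 and 0.709 CPM in WT, near the floor.

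All 9 B cyclins had negative log2 fold changes, as did 5304 of the 10803 genes tested, and their median was -0.73. In 6 of the 9 (66.7%, against 22.9% of all genes) every phod1 value lay below every WT value. The role groups were chosen with earlier results of these data known. With library totals CYCB1;3 was positive (0.049) and the other 8 stayed negative. In the test, 2 of the 9 fell (22.2%, against 13.0% of all genes) and 7 did not pass. CYCB1;4 (AT2G26760, chromosome 2) had 11.49, 11.4 and 13.5 CPM in phod1 and 21.7, 20.6 and 17.9 CPM in WT. The groups did not overlap, and the log2 fold change was -0.73 (SE 0.126, adjusted p = 0.009996). CYCB2;2 (AT4G35620, chromosome 4) had 2.72, 3.55 and 3.15 CPM in phod1 and 4.65, 5.23 and 7.41 CPM in WT. The groups did not overlap, and the log2 fold change was -0.87 (SE 0.231, adjusted p = 0.0392). The call of CYCB2;2 was kept without WT 1 (adjusted p = 0.0424) and lost without phod1 1 (0.116), phod1 2 (0.0724), phod1 3 (0.106), WT 2 (0.0752) or WT 3 (0.0752). Its near copy CYCB2;1, with 82.7% identical aligned coding bases, had 1.02, 1.13 and 1.20 CPM in phod1 and 1.75, 1.75 and 2.67 CPM in WT, again without overlap (log2 fold change -0.88, SE 0.266, adjusted p = 0.0592).

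CYCB1;2 had the highest level per kilobase of the B cyclins, at 10.95 CPM in phod1 and 25.8 CPM in WT. Its libraries stood at 7.63, 24.1 and 26.8 CPM in phod1 and at 42.4, 45.8 and 49.5 CPM in WT. The groups did not overlap, and phod1 1 stood 3.15-fold below its nearest sister. The log2 fold change of -1.24 (SE 0.458) did not pass (adjusted p = 0.102). It passed without phod1 1 (adjusted p = 0.0156) and with DESeq2 (adjusted p = 0.0283), of alternatives up to 0.204. CYCB2;3, which had 5.02, 4.94 and 2.33 CPM in phod1 and 9.76, 7.02 and 7.38 CPM in WT, did not pass either (log2 fold change -0.97, SE 0.335, adjusted p = 0.0839). CYCB1;1, the cyclin often used as a reporter of cells at the entry to mitosis, had 5.07, 5.69 and 3.15 CPM in phod1 and 8.55, 4.16 and 5.60 CPM in WT. Its groups overlapped (log2 fold change -0.39, SE 0.348, adjusted p = 0.467). CYCB1;3 stood at 6.01, 3.53 and 6.63 CPM in phod1 and at 9.76, 1.90 and 8.50 CPM in WT, where WT 2 lay 4.48-fold below its nearest sister (log2 fold change -0.31, adjusted p = 0.760). CYCB2;4 and CYCB3;1 had log2 fold changes of -0.56 and -0.55. Summed over the 9 B cyclins, phod1 libraries had 45.2, 60.1 and 62.4 CPM and WT libraries had 109.8, 92.7 and 107.7 CPM.

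Genes of mitosis and cytokinesis had negative log2 fold changes in all 7 cases, and 2 fell (28.6%, against 13.0% of all genes). With library totals CDC20.2 was positive (0.145). KN (AT1G08560, chromosome 1) encodes the syntaxin KNOLLE, which fuses vesicles into the cell plate that divides plant cells. It had 46.3, 47.8 and 52.9 CPM in phod1 and 96.2, 96.9 and 94.8 CPM in WT. The libraries of each genotype lay within 1.14-fold of each other and the groups were far apart. The log2 fold change was -0.97 (SE 0.0849, adjusted p = 0.0010). The annotation places NPQ1 across 464 of the 1476 bases of KN, on the opposite strand. Reads of NPQ1 may have been counted for KN, which was not tested. HIK (AT1G18370, chromosome 1) encodes HINKEL, a kinesin that starts the signalling by which the phragmoplast, the microtubule scaffold of the cell plate, expands. It had 24.0, 23.7 and 29.0 CPM in phod1 and 37.8, 47.9 and 42.7 CPM in WT, without overlap (log2 fold change -0.74, SE 0.139, adjusted p = 0.0125).

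The Aurora kinase genes, whose products act on chromosomes and the spindle, did not pass. AUR3 had 2.46, 2.29 and 2.33 CPM in phod1 and 3.90, 2.80 and 3.58 CPM in WT, without overlap (log2 fold change -0.54, SE 0.189, adjusted p = 0.0893), and AUR1 and AUR2 had overlapping groups (log2 fold changes -0.40 and -0.50). In AUR1 the WT 3 library, at 1.58 CPM, stood 2.07-fold below its nearest sister. CDC20.1 and CDC20.2, which encode activators of the anaphase-promoting complex, matched at 97.5% of coding bases, so that reads of one could be assigned to the other. CDC20.1 had 54.1, 55.7 and 52.2 CPM in phod1 and 39.1, 88.6 and 89.3 CPM in WT. The phod1 values lay between WT 1 and the other 2 WT libraries (log2 fold change -0.42, SE 0.319, adjusted p = 0.393). Without WT 1 it passed as lower (adjusted p = 0.0084, of alternatives up to 0.929). CDC20.2 had 25.3, 21.8 and 22.4 CPM in phod1 and 20.5, 25.2 and 35.8 CPM in WT (log2 fold change -0.23, SE 0.220, adjusted p = 0.507).

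The authors' deposited table of their own comparison listed 19 of the 59 members, 5 higher and 14 lower in phod1, and held all 14 members that passed here. The authors' deposited table also listed CYCB1;2, CYCB2;1, CYCB2;3, CDKB1;2 and CYCD6;1, all as lower. DESeq2 on the same counts called 19 members and 32.2% of the genes it tested.

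CYCD3;1, KN and TSO2 passed under each of the 12 alternative settings tried, and CYCB1;4, CYCD3;2, HIK and MCM3 also passed whichever single library was left out. With library totals in place of TMM, CYCB1;4 (adjusted p = 0.0520), HIK (0.0702), MCM3 (0.0963), CYCB2;2 (0.167), CDKB2;1 (0.520) and CYCA2;3 (0.748) kept negative log2 fold changes and lost their calls, while all 5 members that rose passed. The number of members called was 8 without phod1 1, phod1 2, phod1 3 or WT 3, 10 without WT 2 and 14 without WT 1. The number higher was 1 without phod1 1 or phod1 2, 2 without phod1 3 or WT 3, 3 without WT 2 and 4 without WT 1. The annotation places another gene across part of 22 members, 6 of them among the 14 that passed. The overlap was 464 of 1476 bases for KN, with NPQ1 on the opposite strand, which was counted at 0.0262 CPM in phod1 and 0.0183 CPM in WT. That count does not show that NPQ1 was silent, since its reads may have been counted for KN, which was not tested. The overlap measured 220 bases for CYCD3;2, 48 for CYCA2;3, 44 for CDKB2;1, 40 for CYCD3;1 and 3 for TSO2. Neighbours of CYCD3;2, CYCD3;1 and TSO2 were absent from the count table, those of CYCD3;1 and TSO2 being on the same strand. Where the reads of these neighbours were counted was not tested. The sources used here give no strand setting, so reads of overlapping genes cannot be told apart. Of the 36 tested members with no such overlap, 8 passed (22.2%, against 28.8% of such genes overall), with 4 higher, KRP6, KRP7, PCNA1 and RNR1, and 4 lower, CYCB1;4, CYCB2;2, HIK and MCM3.

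Further genes of the pathway were read from 9 lists, of which 75 genes were tested, 5 rose and 10 fell. The shares were 6.67% higher and 13.3% lower, against 14.6% and 13.0% of all genes tested, and the count is no result about the lists as a whole. With library totals 18 were higher and 3 lower. In the spindle and phragmoplast list, 6 of 15 genes fell (40%, against 13.0% of all genes) and the other 9 did not pass. This list was chosen with earlier results of these data known. TPX2 (AT1G03780), which nucleates spindle microtubules, had 7.21, 7.19 and 6.63 CPM in phod1 and 12.8, 12.2 and 15.7 CPM in WT, without overlap (log2 fold change -0.95, SE 0.141, adjusted p = 0.0058). The kinesin genes POK1 (log2 fold change -0.64, SE 0.141) and POK2 (-0.60, SE 0.131), which help to place the division plane, and MAP65-3 (-0.54, SE 0.114), which bundles phragmoplast microtubules, fell as well. MAP65-3 and POK2 lost their calls without any 1 phod1 library (adjusted p from 0.0532 to 0.0658 and from 0.0507 to 0.0701), and POK1 without phod1 1 or any 1 WT library (from 0.0586 to 0.0682). The summed level of the list was 249.9 to 258 CPM in phod1 and 309 to 335 CPM in WT, and with library totals the sums overlapped, at 279.8 to 301.3 CPM in phod1 and 264 to 304.2 CPM in WT. With library totals, TPX2 alone of the 6 passed as lower (log2 fold change -0.58, adjusted p = 0.0371), RUK turned positive (0.03), and 3 other genes of the list passed as higher.

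Among 6 regulators of the anaphase-promoting complex, 2 fell (33.3%, against 13.0% of all genes) and none rose. CCS52B (AT5G13840), an activator of the complex at mitosis, had 24.8, 26.1 and 23.4 CPM in phod1 and 39.6, 43.2 and 41.3 CPM in WT, without overlap (log2 fold change -0.74, SE 0.0926, adjusted p = 0.0033). OSD1 (AT3G57860), an inhibitor of the complex, had 5.41, 5.41 and 7.24 CPM in phod1 and 10.3, 11.7 and 7.92 CPM in WT, without overlap (log2 fold change -0.73, SE 0.209, adjusted p = 0.0498). The call of OSD1 was lost without phod1 1 (adjusted p = 0.138), phod1 2 (0.138), WT 1 (0.117) or WT 2 (0.129), without the filter on low counts (0.0584) and with library totals (0.189). Of 12 E2F, DP, DEL and MYB3R transcription factor genes, 1 fell and none rose. It was MYB3R4 (AT5G11510), an activator of mitotic genes through the MSA element, with 17.4, 20.17 and 17.7 CPM in phod1 and 22.2, 25.4 and 24.8 CPM in WT (log2 fold change -0.39, SE 0.1098, adjusted p = 0.0476). The call of MYB3R4 was lost without any 1 library (adjusted p from 0.0598 to 0.142), without the filter on low counts (0.0683), with counts divided by 4 (0.0525) and with library totals, where its log2 fold change was -0.007 (adjusted p = 0.969). None of 10 tested genes of origin licensing, 9 of the replication fork, 3 other A and B cyclins and 7 CDK-activating kinase and CKS genes passed. With library totals 3 genes of origin licensing, 2 of the replication fork and 1 of the CDK-activating kinase and CKS list passed as higher, and CDT1A, a licensing factor gene, passed as higher with DESeq2 (adjusted p = 0.0471).

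Of 6 tested SMR inhibitor genes outside the member set, SMR7 rose and SMR8 fell. SMR7 (AT3G27630), known to be induced by DNA damage, had 1.78, 3.84 and 3.02 CPM in phod1 and 0.539, 0.192 and 0.515 CPM in WT (adjusted p = 0.0114). All phod1 values were above all WT values, and since the WT values lie around the floor no fold is given. SMR8 (AT1G10690), as the authors' deposited table names it, had 6.22, 4.35 and 4.09 CPM in phod1 and 13.7, 13.3 and 13.7 CPM in WT (log2 fold change -1.47, SE 0.192, adjusted p = 0.0037). In the DNA damage response list, 4 of 7 genes rose (57.1%, against 14.6% of all genes tested) and the other 3 did not pass. The list was chosen with earlier results of these data known. GMI1 (AT5G24280), a gene of DNA repair by recombination, had 7.68, 4.82 and 7.11 CPM in phod1 and 2.56, 3.59 and 2.80 CPM in WT (log2 fold change 1.13, SE 0.244, adjusted p = 0.0202). BRCA1 (log2 fold change 0.69, SE 0.142), PARP2 (0.83, SE 0.208) and XRI1 (0.77, SE 0.206), also genes of DNA repair, rose with it, and the groups overlapped in none of the 4. SOG1, the transcription factor gene that commands this response, had overlapping groups (log2 fold change 0.12, adjusted p = 0.577), as did PARP1 and WEE1. TPX2, CCS52B, SMR7 and SMR8 were called whichever single library was left out. The 4 damage response genes all lost their calls without phod1 1 (adjusted p from 0.0616 to 0.0899) and without phod1 3 (from 0.0519 to 0.112). With replicate number added to the model as a block, all 4 lost them too (from 0.0615 to 0.0964), as did SMR7 (0.0706). Without WT 1 or WT 3, GMI1 (adjusted p = 0.0618 and 0.0635), PARP2 (0.0869 and 0.0876) and XRI1 (0.0586 and 0.0876) lost theirs as well, and without phod1 2 PARP2 (0.0955) and XRI1 (0.0769) did. The number of listed genes called was 5, 7 and 6 without phod1 1, 2 and 3, and 7, 12 and 10 without WT 1, 2 and 3.

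**Figure D4:**
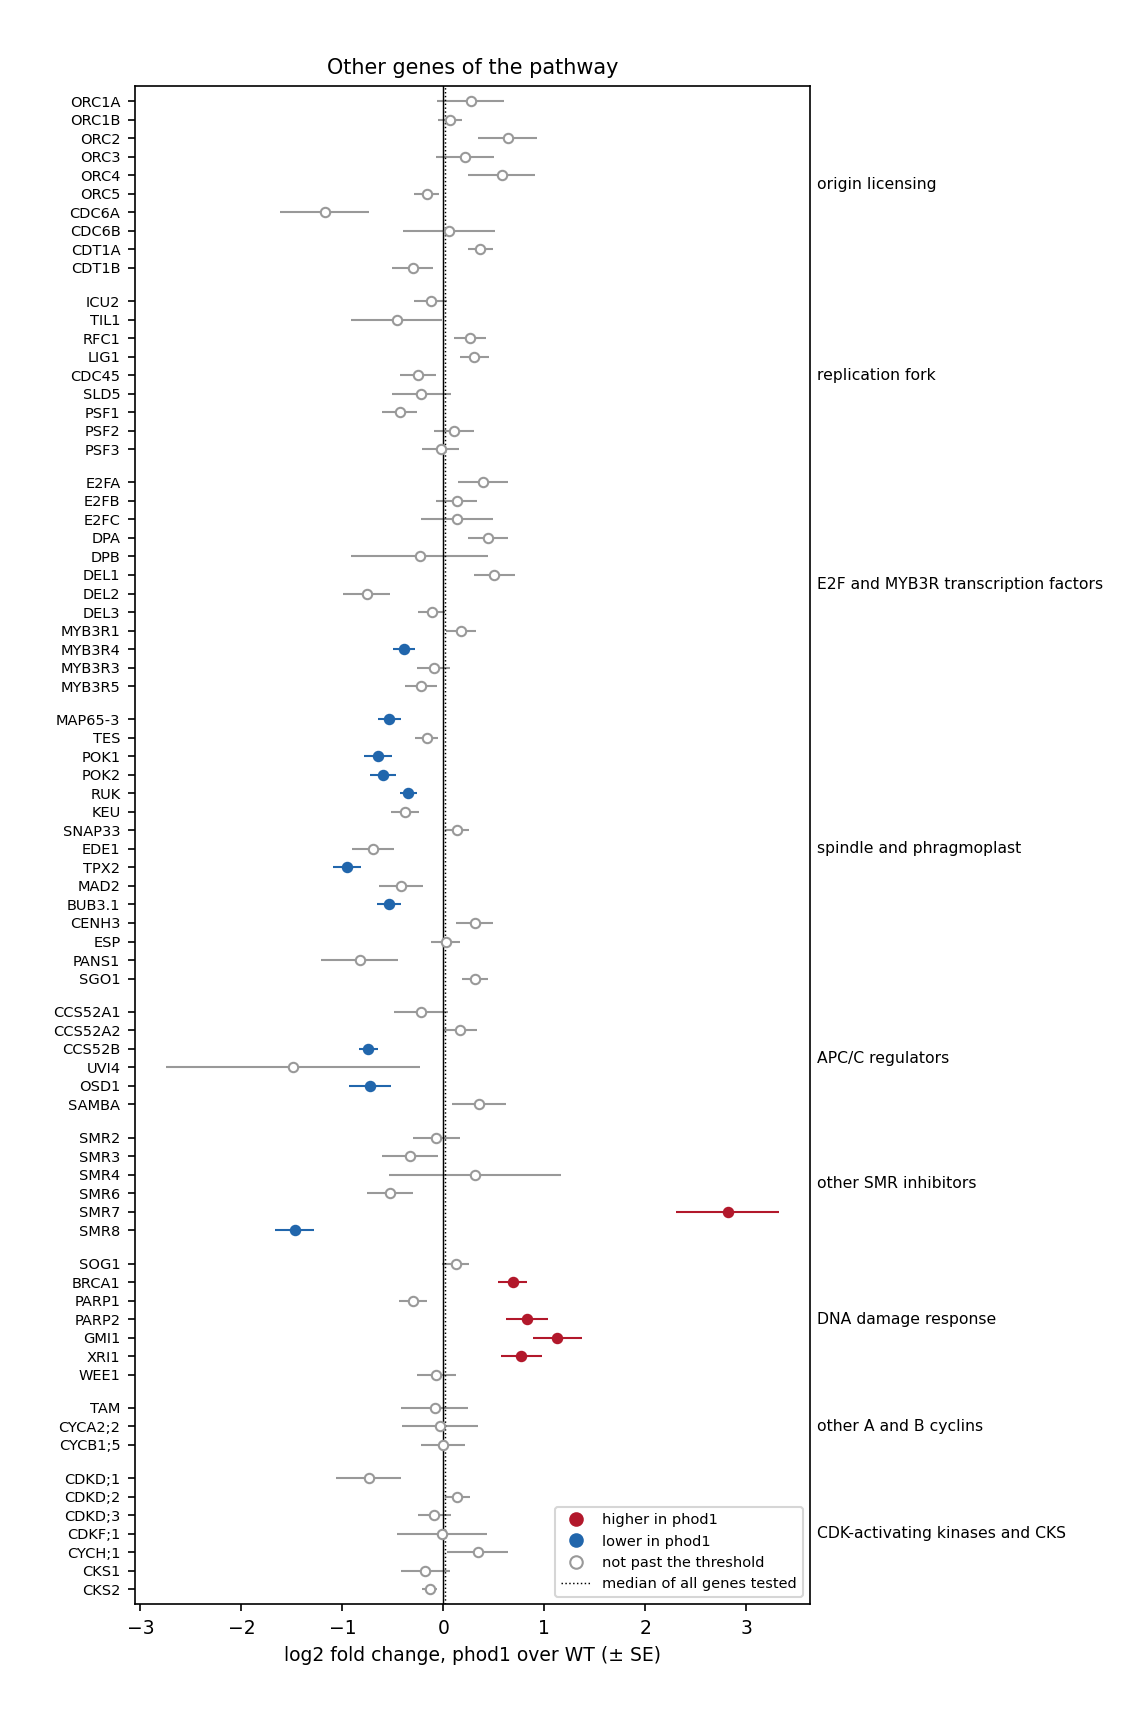
Log2 fold changes (phod1 over WT, ± SE, n = 3 each, horizontal axis) of the 75 tested genes in the 9 further lists, marked as for the members. With TMM scaling the 6 blue points among spindle and phragmoplast genes lie left of 0 (with library totals RUK lies at 0.03) and the 4 red points of the DNA damage response lie right of it.

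Markers of cell types were read beside these results. Of the 4 shoot meristem markers, STM (log2 fold change 1.52, SE 0.181, adjusted p = 0.0029) and KNAT1 (1.38, SE 0.246, adjusted p = 0.0107) rose, WUS was at 0 in every library and CLV3 was at 0 in all WT libraries and at most 0.235 CPM in phod1. The summed level of that list was 19.1 to 26.0 CPM in phod1 and 6.70 to 9.05 CPM in WT. None of the 3 markers of dividing leaf primordia passed, with summed levels of 47.9 to 70.6 CPM in phod1 and 45.6 to 64.7 CPM in WT, and with library totals 1 of them passed as higher. Of 5 stomatal lineage markers, TMM (AT1G80080, the receptor gene TOO MANY MOUTHS and not the scaling method) fell (log2 fold change -0.67, SE 0.114, adjusted p = 0.0095), and the other 4 did not pass. FAMA, a transcription factor gene of guard cell formation, had 34.5, 36.7 and 33.1 CPM in phod1 and 9.66, 23.3 and 8.86 CPM in WT. All phod1 values of FAMA lay above all WT values, and it did not pass (log2 fold change 1.32, SE 0.398, adjusted p = 0.0588), except with DESeq2 (adjusted p = 0.0083). The summed levels of the list were 94.3 to 112 CPM in phod1 and 103 to 117 CPM in WT. With library totals TMM lost its call (log2 fold change -0.29, adjusted p = 0.116), 1 of the 5 passed as higher, and the sums were 104.1 to 128.2 CPM in phod1 and 87.65 to 100.4 CPM in WT. All 4 tested markers of green tissue fell, with summed levels over the 5 listed of 39800 to 45180 CPM in phod1 and 66740 to 103100 CPM in WT. The untested one, RBCS1A, which is part of that sum, held 18141 CPM in WT 1 and at most 0.0267 CPM in every other library. Of 6 root markers none passed, the 4 that could not be tested were at most 0.644 CPM in any library, and PYK10 held nearly all of their sum, which was 230 to 278 CPM in phod1 and 211 to 237 CPM in WT. With library totals 1 root marker passed as higher, and the sums were 254.2 to 324.9 CPM in phod1 and 181.8 to 203 CPM in WT. The part of such differences in cell make-up in the values of the cell cycle genes was not tested.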

How the data were processed

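RNA-seq libraries came from 3 phod1 and 3 WT shoot samples, grouped by the labels, and all 6 sample columns were used. The authors deposited estimated counts (expected counts) per gene, whole numbers with no normalization, so that rounding changed no value. CASAVA 1.4, STAR, StringTie and the build TAIR10 are named, without role or order, in the submitters' processing notes. For the counting command, the annotation and the strand setting, none was given in the sources used here. The value 4 was seen 1703 times against 562 for 3, and 1 fragment was taken as 4 units from the values alone. The authors' deposited comparison gives, per the file headers, log2 fold changes, p-values, a test score (the fold change over its error) and a mean normalized count (signal).

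After TMM scaling, genes were tested with edgeR 4.0.16 in R 4.3.3 (glmQLFit, glmQLFTest, two-sided, genotype as the only term) after filterByExpr (minimum count 10, minimum total 15). P-values were adjusted by Benjamini-Hochberg over 10803 genes, with a threshold of 0.05, and 1581 genes were higher and 1407 lower in phod1. Of all genes, 7887 were at 0 in every library. The SE is the log2 fold change divided by the square root of F, and fits were tested on simulated data. The plan had been written for read counts, and its test was also applied to estimated counts. Alternatives were DESeq2 1.42.0 and its size factors, library totals, no filter, counts divided by 4, a replicate block and each library left out. The analysis without overlapping gene models was added after seeing the data. DESeq2 gave 3905 genes, of which 3902 were in the authors' deposited table, with log2 fold changes within 5.8e-05.

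The members, role groups and further lists were chosen with earlier results of these data known. Every member is accounted for, those that passed are named with each library, and from each further list at most 4 genes that passed are named by smallest p, except that RUK, FAMA and CDT1A were named after their values were seen. One gene of the further lists is not reported here. With 3 against 3 samples an exact permutation test cannot go below p = 0.1 and was not used. Promoters were read from RefSeq's TAIR10.1 genome and annotation, in which all 59 members had a locus. Annotated starts may differ from those of the authors' build, so no position in the deposited files was taken from it.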

Additional observations from a re-analysis of the deposited data

How the results depend on the processing

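Depth limits genes near 0.256 to 0.404 CPM, such as CYCD7;1 and CYCA2;1. Of the results of single members under the alternatives, 591 kept direction and side of the threshold, 54 lost the call, 14 gained it and 35 turned sign, all 35 in members that did not pass. With library totals in place of TMM, 3544 genes were called higher and 618 lower, of the members 9 and 3, of the further lists 18 and 3, and 18 members had all phod1 values above WT and 9 below. Values that turned sign there were 0.13 for CYCA1;1, 0.331 for CYCA3;1, 0.049 for CYCB1;3, 0.171 for CDKB1;1, 0.209 for CDKB2;2, 0.257 for CYCD5;1, 0.145 for CDC20.2, 0.142 for SIM, 0.254 for LGO, 0.368 for PCNA2, 0.36 for RNR2A and 0.269 for RBR1. With 1 library left out at a time, log2 fold changes of either sign were seen in CYCA2;1 (-0.156 to 0.575), CYCA3;1 (-0.12 to 0.078), CYCB1;3 (-0.757 to 0.063), CDKA;1 (-0.168 to 0.32), CYCD4;2 (-0.843 to 0.034), CYCD5;1 (-0.254 to 0.066), CDC20.2 (-0.391 to 0.024), KRP1 (-0.123 to 0.363), KRP4 (-0.092 to 0.596), PCNA2 (-0.112 to 0.087), RNR2A (-0.188 to 0.159), MCM4 (-0.002 to 0.226) and MCM7 (-0.177 to 0.171). Leaving out 1 library gave 8 to 14 members called, 1 to 4 higher and 6 to 10 lower, and 5 to 12 genes of the further lists, 1 to 5 higher and 4 to 8 lower. All genes called then ranged from 2128 to 2531, with 1101 to 1351 higher and 1027 to 1180 lower. Without the filter on low counts 3 members were higher, and with DESeq2 14 members were lower. Leaving out members with an overlapping gene left 8 calls, 4 higher and 4 lower, against 5 higher and 9 lower among all tested members. Each was 11.1% of the 36 members left, against 15.6% higher and 13.2% lower of all genes without such an overlap. The labels do not say whether equal numbers pair the samples. Deviations of same-numbered libraries correlated at -0.011, -0.059 and 0.001, and no phod1 library correlated best with its own number. A pairing was thus not seen, but deviations from means of 3 libraries cannot exclude one. With the replicate block, 1500 genes were called, 788 higher and 712 lower, and 4 members, TSO2 higher and CYCD3;1, KN and MCM3 lower (3), while of the further lists 3 genes were called, 0 higher and 3 lower, and PCNA2 stood at 0.001. The cause of these differences was not tested.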
